A study of Mus musculus with 9 samples.

Results

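Mouse B cells were cultured for 3 days with lipopolysaccharide (LPS) and interleukin-4 (IL-4). Among the genes that rose in Mb1Cre control cells, 89 reached a lower level in Mct1f/fMb1Cre cells. They were chosen on measured values from a table of 17596 genes. Group means were taken of log2(FPKM + 1), where FPKM is the fragment count normalised to transcript length and to all mapped fragments. A gene was a member if its mean over the 9 libraries was at least 1 FPKM, if it was higher by more than 1 on the log2 scale in Mb1Cre cells on day 3 than on day 0, and if it was lower by more than 0.5 on day 3 in Mct1f/fMb1Cre than in Mb1Cre cells. Of 10823 genes that passed the FPKM minimum, 1324 met the limit on the rise, and 95 of these met the limit on day 3. Slc16a1 (the symbol of Mct1 in the table), Batf3, Ctla4, Ido1, Il1r2 and Eno2 were left out by name, which gave the 89 members. The rise in Mb1Cre cells and the day 3 difference of the members therefore follow from how they were chosen, and both are given as a description, with no test.

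RNA was sequenced from primary splenic B cells of Mb1Cre control mice and of Mct1f/fMb1Cre mice. Both genotypes carry the Mb1 (Cd79a) driven Cre recombinase, which is active from early in the B cell lineage. In Mct1f/fMb1Cre mice Cre is meant to remove the Mct1 segment between sites flanking exon 1 and intron 3 from early in the lineage, before activation. Naive cells were taken on day 0 without treatment, with 2 libraries per genotype. Activated cells were cultured for 3 days with LPS at 10 μg/mL and IL-4 at 50 ng/mL, a mixture that drives antibody class switching, with 2 Mb1Cre and 3 Mct1f/fMb1Cre libraries. Mice were 6 to 8 weeks old. The labels name no mouse or litter for a library and do not say whether libraries came from separate animals. P-values therefore measure only the spread between these libraries, which may be in part technical. The Y-linked genes given below differed between the 2 Mct1f/fMb1Cre day 0 libraries, so these were not repeats of the same cells.

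LPS engages Toll-like receptor 4 on B cells and activates NF-kB and MAP kinase signalling, and IL-4 acts through the transcription factor STAT6. Together they turn a resting B cell into a growing and dividing blast that secretes cytokines, displays new surface receptors and can switch its antibody class. MCT1 carries lactate and pyruvate across the plasma membrane along with protons and is itself induced when lymphocytes are activated.

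The FPKM of a library summed to 477079 to 563586 over all genes, the sequencing depth is unknown because the values hold no read counts, and Pearson's r across genes between libraries of one group was 0.993 to 0.998. Slc16a1 had 22.6 and 22.9 FPKM in the Mb1Cre and 10.8, 9.81 and 9.50 FPKM in the Mct1f/fMb1Cre libraries on day 3. On day 0 it had 4.33 and 3.80 FPKM against 3.71 and 4.06 FPKM, so the gene-level value separated the genotypes on day 3 and not on day 0, and the loss given by the labels does not show in it in the naive libraries. In the libraries labelled Mct1f/fMb1Cre, Slc16a1 was higher by 1.18 on the log2 scale on day 3 than on day 0. The deleted segment alone was not analysed here, so the gene-level value does not tell how much of it was lost, and the genotypes are named as labelled throughout. The 7 B cell markers (among them Cd79a, Cd79b and Ms4a1) summed to 1976 to 1994 FPKM in the Mb1Cre and to 1987 to 2058 FPKM in the Mct1f/fMb1Cre libraries on day 3, and each was above 1 FPKM in every day 3 library. The 12 myeloid markers summed to 1054 to 1898 FPKM in the 4 day 0 libraries, to 16.7 to 18.1 FPKM in the Mb1Cre and to 23.8 to 27.0 FPKM in the Mct1f/fMb1Cre libraries on day 3. Of these 12 markers, 6 were under 1 FPKM in every day 3 library and 2 (Lyz2 and Adgre1) were called higher in Mct1f/fMb1Cre on day 3. The 8 dendritic cell markers summed to 253 to 283 FPKM in the Mb1Cre and to 199 to 206 FPKM in the Mct1f/fMb1Cre libraries on day 3, nearly all of it Bst2 and Cst3, and the other 6 were under 1 FPKM in every day 3 library. In Mb1Cre cells Bst2 rose from 57.0 and 65.7 FPKM on day 0 to 222 and 198 FPKM on day 3. Cst3 fell from 314 and 355 FPKM to 60.6 and 54.6 FPKM. Of the stromal and endothelial markers, Col1a1 had 28.8 FPKM in replicate 1 of Mb1Cre day 0 and 1.25, 0.74 and 0.73 FPKM in the other day 0 libraries. Col3a1 had 4.08 FPKM there and 0.09, 0.06 and 0.12 FPKM in the others, while Pecam1, Cdh5 and Vwf did not stand out in that library. The 4 Y-linked genes summed to 74.0 FPKM or more in all 5 day 3 libraries and in replicate 1 of Mct1f/fMb1Cre day 0 but to 3.55 FPKM or less in the other 3 day 0 libraries, so the day of a Mb1Cre library and the sex of its cells cannot be told apart. The part of these other cells and of sex in the members' values was not tested. FPKM are relative to all RNA of a library, and fewer cells of a type cannot be told apart from less RNA per cell.

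As a group, the members had close summed levels in the genotypes on day 0 and lower ones in Mct1f/fMb1Cre cells on day 3. Their FPKM summed to 468.5 and 484 in the Mb1Cre libraries and to 489.6 and 479 in the Mct1f/fMb1Cre libraries on day 0. On day 3 the sum was 2909 and 2891 FPKM in the Mb1Cre libraries against 1688, 1737 and 1708 FPKM in the Mct1f/fMb1Cre libraries. The 3 Mct1f/fMb1Cre libraries lay close together, with a median member 0.72, 0.66 and 0.71 below the Mb1Cre mean on the log2 scale. In 88 of 89 members every Mct1f/fMb1Cre library was below both Mb1Cre libraries on day 3, where 26.1% of all tested genes showed the same order. The exception was the gene model Gm42049. The choice of members makes this order likely. Among the 1229 genes that rose in Mb1Cre cells without meeting the day 3 limit, 572 (46.5%) showed it too. By limma with an adjusted p under 0.05 and a log2 difference above 0.5 in size, 88 members were called lower on day 3, where 1.53% of all tested genes were called, a count that the choice of members fixes.

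Most members still rose in Mct1f/fMb1Cre cells, by less. All 89 members were called higher on day 3 than on day 0 in Mb1Cre cells, against 24.8% of all tested genes, and their median rise was 2.20 on the log2 scale (range 1.03 to 4.76). In Mct1f/fMb1Cre cells 83 of 89 were called higher, against 23.4% of all tested genes, with a median rise of 1.39 (range -0.09 to 3.96). Among the 1229 genes that rose in Mb1Cre cells without meeting the day 3 limit, 1218 were called higher in Mct1f/fMb1Cre cells. The rise in Mct1f/fMb1Cre as a share of the rise in Mb1Cre, both on the log2 scale, had a median of 64.1% over the members. It was under 50% in 24 members, from 50 to 75% in 42 and 75% or more in 23. For the same decrease this share is larger where the rise in Mb1Cre cells is larger, so it does not rank members by their decrease. On the linear scale the day 3 mean in Mct1f/fMb1Cre cells was 23.2% to 70.5% of the control mean, with a median of 59.5%. Before activation 25 members were under 1 FPKM in all 4 libraries, and on day 3 the Mb1Cre mean of a member ranged from 2.45 to 221 FPKM.

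**Figure D1:**
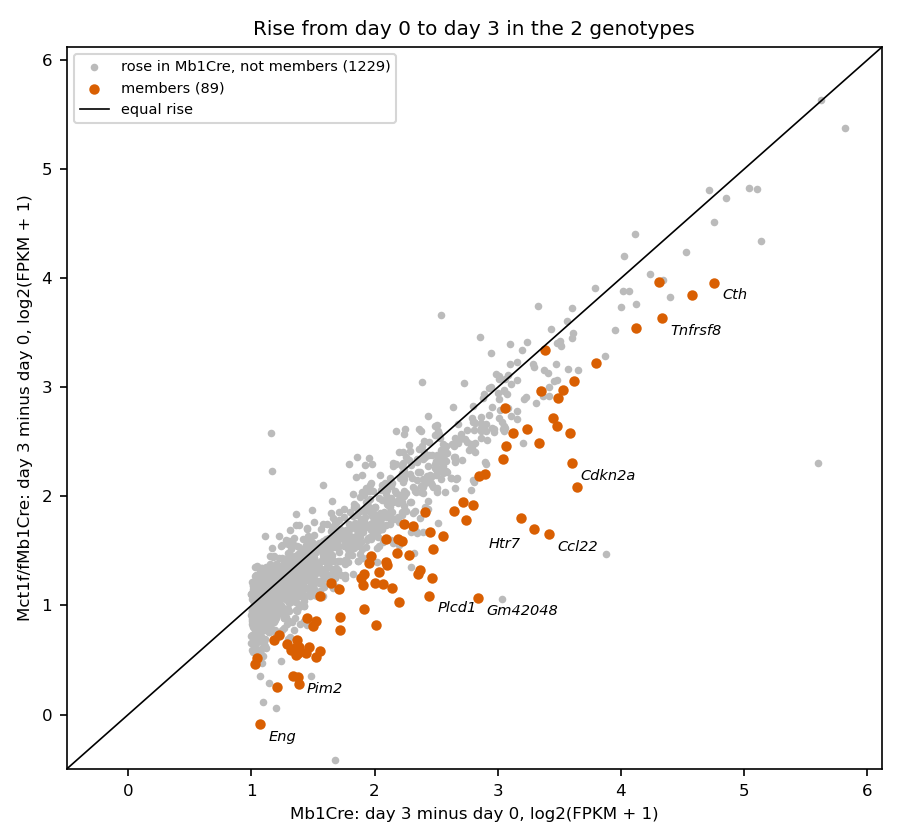
Rise from day 0 to day 3 on the log2(FPKM + 1) scale in Mb1Cre (horizontal) and Mct1f/fMb1Cre cells (vertical), each point 1 gene, with the 89 members in orange, the 1229 other genes that rose in Mb1Cre cells in grey, and a line of equal rise. All members lie under the line, as the choice of members makes likely, and Eng (-0.09) is the only member below 0 on the vertical axis.

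**Figure D2:**
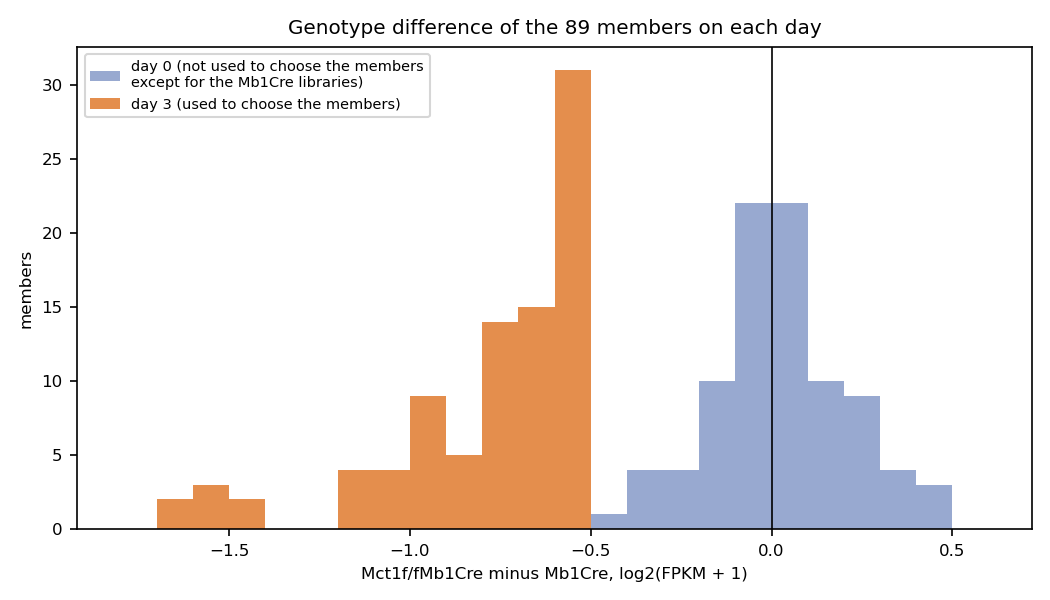
Number of members by their genotype difference (Mct1f/fMb1Cre minus Mb1Cre, log2(FPKM + 1), bins of 0.1) on day 0 in blue and on day 3 in orange. On day 0 the differences spread on both sides of 0, from -0.46 to 0.42, and on day 3 they end at the limit of -0.5 that chose the members.

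Sequences before the transcription start were read for the members that had an entry in the RefSeq promoter table (GRCm38.p6), 69 of 89 with 95 promoter windows. Leaving out numbered gene models, for the 6 named genes with the largest day 3 decrease that held a match to any of 8 short motifs, the 250 bases before the start are shown 5′ to 3′ on the strand of the gene, with the matched letters in capitals, so that the text of the promoters that moved most can be read. The windows are Plcd1 at chr9:119088262-119088511 (-), Il6 at chr5:30012864-30013113 (+), Cdkn2a at chr4:89294620-89294869 (-), Epha2 at chr4:141300971-141301220 (+), Dusp14 at chr11:84068358-84068607 (-), Pim2 at chrX:7878056-7878305 (+). Only 1 window per gene is shown, the first by position with the most kinds of motif. Plcd1 and Cdkn2a had 2 windows each. The Plcd1 and Dusp14 windows shown lie inside the spans of their genes (chr9:119071527-119093502 and chr11:84048033-84069256). The other Plcd1 window, at the outer start of its span, held GC boxes 73 and 40 bases before that start.

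Plcd1: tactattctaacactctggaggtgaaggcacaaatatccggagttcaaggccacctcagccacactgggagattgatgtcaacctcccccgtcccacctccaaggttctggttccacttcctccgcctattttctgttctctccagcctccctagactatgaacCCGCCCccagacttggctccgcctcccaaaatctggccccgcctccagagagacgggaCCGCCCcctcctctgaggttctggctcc
Il6: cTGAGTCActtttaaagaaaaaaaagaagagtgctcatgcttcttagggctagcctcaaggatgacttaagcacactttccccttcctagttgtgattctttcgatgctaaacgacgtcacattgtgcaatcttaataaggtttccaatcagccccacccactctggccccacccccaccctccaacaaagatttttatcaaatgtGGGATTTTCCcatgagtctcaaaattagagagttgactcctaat
Cdkn2a: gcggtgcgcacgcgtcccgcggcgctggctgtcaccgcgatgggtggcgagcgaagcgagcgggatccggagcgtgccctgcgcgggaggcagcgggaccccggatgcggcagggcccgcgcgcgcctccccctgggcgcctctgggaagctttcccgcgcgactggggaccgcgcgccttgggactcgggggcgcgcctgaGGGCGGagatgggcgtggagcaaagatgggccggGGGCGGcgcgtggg
Epha2: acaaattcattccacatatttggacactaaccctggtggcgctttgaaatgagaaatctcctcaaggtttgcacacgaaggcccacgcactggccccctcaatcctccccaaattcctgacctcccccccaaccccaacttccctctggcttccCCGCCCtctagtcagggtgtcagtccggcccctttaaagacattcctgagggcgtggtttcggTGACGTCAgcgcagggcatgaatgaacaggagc
Dusp14: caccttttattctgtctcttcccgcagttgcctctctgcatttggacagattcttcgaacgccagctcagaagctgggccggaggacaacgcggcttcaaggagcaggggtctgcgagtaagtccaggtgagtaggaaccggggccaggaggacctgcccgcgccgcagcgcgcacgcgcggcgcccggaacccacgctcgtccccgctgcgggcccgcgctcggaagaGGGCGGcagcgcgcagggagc
Pim2: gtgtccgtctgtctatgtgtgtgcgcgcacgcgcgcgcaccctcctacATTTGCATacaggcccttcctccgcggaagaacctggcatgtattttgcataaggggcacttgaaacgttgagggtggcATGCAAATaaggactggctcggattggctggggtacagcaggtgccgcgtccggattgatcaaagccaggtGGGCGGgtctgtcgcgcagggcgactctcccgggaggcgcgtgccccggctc

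The letters searched on both strands were TGANTCA (AP-1), TTCNNNNGAA (STAT), GGGNNTTTCC (kappaB), CACGTG (E-box), TGACGTCA (CRE), GGGCGG (GC box), GAAANNGAAA (interferon element) and ATTTGCAT (octamer). Il6 held the AP-1 letters 249 bases and the kappaB letters 44 bases before its start, Epha2 held the CRE letters 33 bases before its start, and Pim2 held the octamer on each strand, 202 and 123 bases before its start. Plcd1, Cdkn2a and Dusp14 held only GC boxes. The kappaB letters occurred in 5.26% of the members' windows, in 1.85% of the 1190 windows of genes that rose in Mb1Cre cells without the day 3 difference and in 1.41% of all 32851 windows. The members with these letters were Il6, Csf1, Sytl3 and Rap1gap, the last in a pair of overlapping windows that share 1 match. The interferon element occurred in 6.32%, 3.61% and 2.98% of windows, AP-1 in 6.32%, 3.70% and 6.75%, and the E-box in 9.47%, 9.66% and 6.02%. The STAT letters were in 3.16%, 5.97% and 5.85%, the GC box in 49.5%, 58.1% and 32.7%, the CRE in 1.05%, 2.18% and 1.55%, and the octamer in 1.05%, 1.26% and 1.60%. A match is a run of letters, not a site shown to be used, and these shares rest on few members.

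Secreted factors and ligands made up 10 members, with day 3 differences from -1.56 to -0.57 on the log2 scale. Ccl22, a chemokine that attracts T cells through the receptor Ccr4, had 2.75 and 2.25 FPKM in Mb1Cre and 2.48 and 3.66 FPKM in Mct1f/fMb1Cre cells on day 0. On day 3 it had 36.1 and 36.7 FPKM against 11.5, 11.5 and 12.02 FPKM. Its rise on the log2 scale was 3.42 in Mb1Cre and 1.65 in Mct1f/fMb1Cre cells, and no Mct1f/fMb1Cre library came near a control library. Il6, a cytokine with an acute-phase and B cell growth role, was nearly silent on day 0 (0 and 0.10 FPKM against 0.16 and 0.11 FPKM). On day 3 it reached 11.8 and 12.4 FPKM in Mb1Cre and 4.13, 3.76 and 3.58 FPKM in Mct1f/fMb1Cre cells. Il10, the cytokine that restrains inflammation and is made by regulatory B cells, reached 4.71 and 4.73 FPKM against 1.59, 2.07 and 2.06 FPKM. The lowest of these Il10 values was in Mct1f/fMb1Cre replicate 1, and the groups did not overlap. Jag2, a Notch ligand, had 3.08 and 3.17 FPKM against 1.14, 1.12 and 0.92 FPKM on day 3 from 0.41 and 0.46 FPKM in Mb1Cre and 0.41 and 0.44 FPKM in Mct1f/fMb1Cre cells on day 0, and kept 34.8% of its rise, the lowest share in this group.

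Ebi3, a subunit of heterodimeric interleukins, was the most abundant of the ligands, with 227 and 214 FPKM in Mb1Cre and 128, 138 and 134 FPKM in Mct1f/fMb1Cre cells on day 3. It kept 76.9% of its log2 rise. Csf1, the growth factor of macrophages, had 16.8 and 16.9 FPKM against 11.6, 10.5 and 11 FPKM, a difference of -0.57 and close to the limit of the choice. Tnfsf9, the ligand of the costimulatory receptor Tnfrsf9, differed by -0.75, the growth hormone gene Gh by -0.71, the angiopoietin-like factor Angptl6 by -0.63 and the Wnt ligand Wnt10b by -0.58 on the log2 scale on day 3. Wnt10b kept the largest share of its rise among the ligands, 82.7%.

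**Figure D3:**
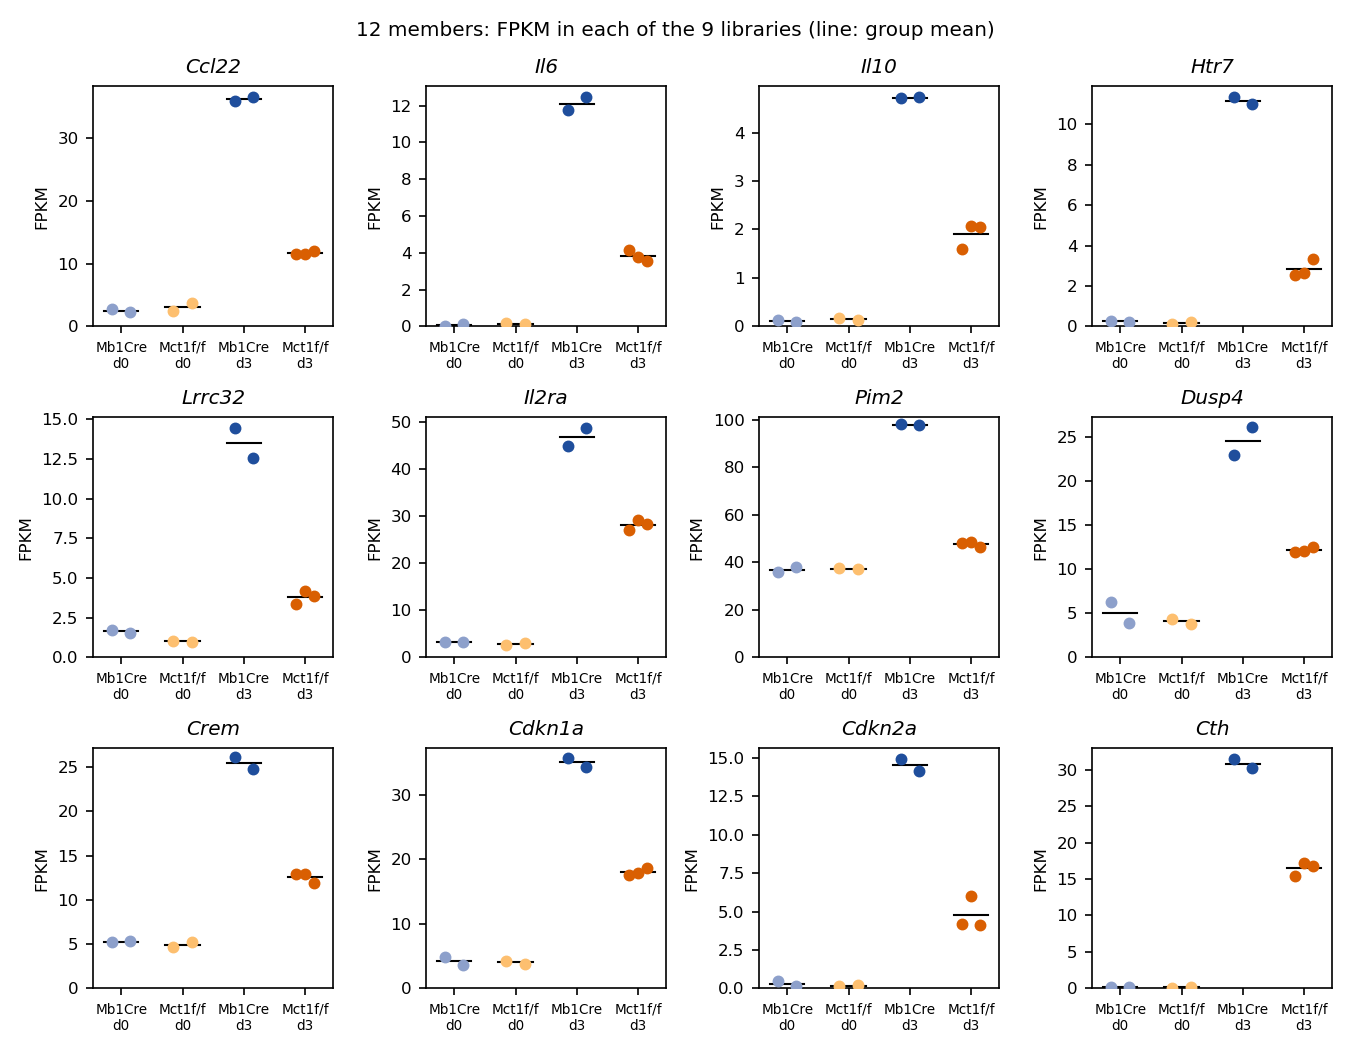
FPKM of 12 members (1 panel each, linear axis from 0) in each library, by group, with points for libraries and a line for the group mean. In every panel the 3 Mct1f/fMb1Cre day 3 points lie under the 2 Mb1Cre day 3 points, and in the Pim2 panel the day 0 points already stand well above 0.

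Receptors and other surface proteins were the largest group with 14 members. Htr7, a serotonin receptor, had the largest day 3 difference of all members (-1.67). It went from 0.25 and 0.23 FPKM on day 0 to 11.3 and 11.02 FPKM on day 3 in Mb1Cre cells, and from 0.13 and 0.23 FPKM to 2.55, 2.66 and 3.31 FPKM in Mct1f/fMb1Cre cells. The day 3 mean in Mct1f/fMb1Cre was 25.4% of the control. Lrrc32 (GARP), which docks latent TGF-beta on the cell surface, had 14.5 and 12.6 FPKM against 3.39, 4.17 and 3.85 FPKM on day 3. Its day 0 values were 1.75 and 1.51 FPKM in Mb1Cre and 1.06 and 0.97 FPKM in Mct1f/fMb1Cre cells, without overlap between the genotypes but a difference of -0.38 that was not called (adjusted p = 0.208 by limma).

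Eng (endoglin), a co-receptor of the TGF-beta family, was the 1 member with no increase at all in Mct1f/fMb1Cre cells. It had 2.02 and 2.02 FPKM in Mb1Cre and 2.07 and 2.15 FPKM in Mct1f/fMb1Cre cells on day 0, and 5.11 and 5.61 FPKM against 2.15, 1.98 and 1.66 FPKM on day 3. Only the Mb1Cre libraries of day 3 stood apart from the rest. Bdkrb1, a bradykinin receptor, had 3.66 and 3.38 FPKM against 1.24, 0.98 and 0.76 FPKM on day 3, and Epha2, a receptor tyrosine kinase for ephrins whose promoter with the CRE letters is among those printed, had 4.48 and 5.02 FPKM against 1.61, 1.68 and 1.54 FPKM. Itgb3, the beta 3 integrin subunit, was already present at rest (9.45 and 7.46 FPKM against 7.38 and 6.99 FPKM) and had 30.3 and 29.8 FPKM against 14.7, 13.7 and 14.4 FPKM on day 3.

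Il2ra, the alpha chain of the IL-2 receptor and a standard sign of lymphocyte activation, still rose strongly in Mct1f/fMb1Cre cells. Mb1Cre cells went from 3.16 and 3.35 FPKM to 44.9 and 48.8 FPKM and Mct1f/fMb1Cre cells from 2.69 and 3.11 FPKM to 27.1, 29.2 and 28.2 FPKM, so 83.2% of the log2 rise was kept. Tnfrsf8 (CD30), another receptor of activated lymphocytes, kept 83.9% and had 26 and 24.7 FPKM against 15.04, 15.7 and 15.8 FPKM on day 3, which made it 1 of the 5 members with the largest rise in control cells (4.33). Ly75 (DEC-205), an endocytic receptor, had 49.9 and 52.5 FPKM against 29.8, 27.6 and 28.2 FPKM on day 3. For Thy1, a surface glycoprotein best known from T cells, the rise was almost the same in both genotypes (3.38 and 3.34), and its day 3 difference of -0.50 was close to its day 0 difference of -0.46. The other 4 members of the group, the chemerin receptor Ccrl2, the prostacyclin receptor Ptgir, the neuroligin Nlgn2 and the mucin Muc1, had day 3 differences from -0.78 to -0.54.

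Signalling enzymes, adaptors and inhibitors made up 13 members. Plcd1, a phospholipase C that cleaves membrane phosphoinositides, was close to silent on day 0 (0.25 and 0.13 FPKM against 0.11 and 0.02 FPKM). Its 5.45 and 5.49 FPKM in Mb1Cre and 1.28, 1.11 and 1.41 FPKM in Mct1f/fMb1Cre cells on day 3 gave the lowest linear share of any member, 23.2% of the control mean. Pim2, a serine/threonine kinase that promotes growth and survival, was among the more abundant members at rest, at 36.01 and 37.9 FPKM in Mb1Cre and 37.4 and 37.1 FPKM in Mct1f/fMb1Cre cells. On day 3 it had 97.97 and 97.5 FPKM against 47.9, 48.5 and 46.5 FPKM, the group values spanning under 3 FPKM, and its log2 increase was 1.38 against 0.35.

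Feedback inhibitors stood in this group side by side. Dusp4 and Dusp14 are phosphatases that act on MAP kinases. Dusp14 had 5.06 and 4.78 FPKM against 1.65, 2.25 and 1.78 FPKM on day 3, and Dusp4 had 22.96 and 26.1 FPKM against 11.9, 12.1 and 12.5 FPKM. Socs3, an inhibitor of cytokine receptor signalling through JAK and STAT proteins, had 33.5 and 30.9 FPKM against 17.4, 18.4 and 19.4 FPKM. Rap1gap, which switches off the GTPase Rap1, kept 20% of its log2 increase (1.39 in Mb1Cre and 0.28 in Mct1f/fMb1Cre cells), and Stk39, a kinase that controls ion cotransporters, kept 20.5%. Neither was called higher on day 3 in Mct1f/fMb1Cre cells, nor were Pim2, Eng, Rsad2 and Dennd11, which completes the 6 members without a call. Of these 6, Pim2, Dennd11, Rap1gap and Rsad2 had an adjusted p of 0.029 or less by limma and missed only the size limit of 0.5. Stk39 (adjusted p = 0.074) and Eng (adjusted p = 0.35) missed both limits. Rasd1, a small GTPase of the Ras family, spread widely between the control libraries (18.7 and 13.9 FPKM against 7.13, 8.42 and 7.49 FPKM in Mct1f/fMb1Cre cells). Traf1, an adaptor of TNF receptors and an NF-kB target, was the most abundant, with 127 and 122 FPKM against 80.8, 87.8 and 93.8 FPKM, and its difference of -0.51 lay just inside the limit. The remaining 4, the SOCS box protein Spsb1, the Wnt inhibitor Dact3 and the GTPases Rab20 and Rhobtb1, had day 3 differences from -0.72 to -0.54.

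Regulators of transcription and RNA made up 6 members. Crem, a factor that binds cAMP response elements, had 5.23 and 5.33 FPKM in Mb1Cre and 4.65 and 5.21 FPKM in Mct1f/fMb1Cre cells on day 0 and 26.1 and 24.8 FPKM against 12.9, 12.96 and 11.9 FPKM on day 3. Satb1, which organises chromatin in lymphocytes, started higher, at 48.2 and 51.7 FPKM against 50.6 and 52.04 FPKM, and reached 129.6 and 133 FPKM against 72.6, 78.7 and 78.1 FPKM. It kept 41.1% of its log2 rise, the lowest share of this group, and the genotypes did not overlap. Hlx, a homeobox factor, differed by -0.71, Stat4, a signal transducer of interleukin receptors, by -0.54, and the nuclear protein Hemgn by -0.53 on day 3. Tent5c, a poly(A) polymerase abundant in plasma cells, had 36.6 and 38.6 FPKM against 21.7, 23.1 and 22.1 FPKM and kept 71.9%.

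Genes of cell cycle arrest, survival and death made up 8 members. Cdkn2a, whose locus encodes an inhibitor of cyclin-dependent kinases and, in another reading frame, an inhibitor of Mdm2, was at 0.45 and 0.12 FPKM in Mb1Cre and 0.13 and 0.19 FPKM in Mct1f/fMb1Cre cells on day 0. On day 3 it reached 14.9 and 14.2 FPKM against 4.21, 5.99 and 4.14 FPKM, with replicate 2 the highest of the Mct1f/fMb1Cre libraries and still far below either control. Cdkn1a (p21), the p53-induced inhibitor of cyclin-dependent kinases, had 35.6 and 34.4 FPKM against 17.5, 17.9 and 18.6 FPKM on day 3. Phlda3, a p53 target that restrains Akt, kept 92.1% of its rise, with 13.8 and 14.9 FPKM against 8.30, 9.31 and 10.1 FPKM.

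Genes on both sides of the mitochondrial death pathway were members. Bcl2a1d, an anti-apoptotic BCL2 relative, had 219.5 and 215 FPKM against 132, 141 and 133 FPKM on day 3, and Bcl2l11 (BIM), which promotes death, had 46.6 and 48.1 FPKM against 31.1, 29.2 and 29.98 FPKM. Bcl2a1d has near-identical relatives, so reads may have been divided among them, and its relative Bcl2a1b lay just outside the day 3 limit at -0.49. Ddias, an anti-apoptotic gene induced by DNA damage, Psrc1, a p53-regulated microtubule protein, and Niban1, a stress-induced protein, had day 3 differences of -0.51, -0.53 and -0.53.

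Enzymes and transporters made up 13 members. Cth, which makes cysteine from cystathionine, had the largest rise of all members in control cells (4.76). It went from 0.16 and 0.19 FPKM on day 0 to 31.4 and 30.2 FPKM on day 3 in Mb1Cre cells, and from 0.09 and 0.16 FPKM to 15.5, 17.2 and 16.8 FPKM in Mct1f/fMb1Cre cells, which kept 83.2% of the log2 rise. The glutathione transferase Gstt2 was the most abundant enzyme, with 147 and 143 FPKM against 81.3, 91.02 and 87.4 FPKM on day 3, and its neighbour Gstt1 had 8.01 and 6.90 FPKM against 4.05, 4.11 and 3.38 FPKM. Cox6a2, the muscle form of a cytochrome c oxidase subunit, had 29.2 and 27.7 FPKM against 9.94, 14.7 and 13.6 FPKM. Its Mct1f/fMb1Cre day 3 replicates spread more than those of most members, and Mct1f/fMb1Cre replicate 1 on day 3 was within the range of the 4 day 0 libraries (8.97 and 10.3 and 6.42 and 9.48 FPKM).

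Tyms, which makes thymidylate for DNA synthesis, had 32.3 and 30.3 FPKM against 20.8, 20.7 and 20.6 FPKM on day 3 and was the 1 DNA replication gene among the members. Lipg (endothelial lipase) was at 6.18 and 6.24 FPKM against 2.61, 2.80 and 2.92 FPKM, and Slco4a1, an organic anion carrier, at 12.4 and 12.2 FPKM against 6.80, 6.70 and 6.49 FPKM. Day 3 differences of the other 6, Lacc1, the polyamine regulator Azin2, the drug efflux pump Abcb1b, the carbonic anhydrase Car13, the insulin-degrading enzyme Ide and the thiamine carrier Slc19a2, ranged from -0.78 to -0.50.

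Among 5 genes known to respond to interferon, Ifi44 had the largest difference, with 7.18 and 7.79 FPKM against 3.12, 3.45 and 3.66 FPKM on day 3. Plscr1, a membrane scramblase, was the most abundant, with 79.9 and 77.9 FPKM against 45.2, 51.01 and 50.1 FPKM. Rsad2 (viperin) had 2.83 and 4.64 FPKM in Mb1Cre and 5.05 and 5.26 FPKM in Mct1f/fMb1Cre cells on day 0 and 10.8 and 10.7 FPKM against 6.11, 7.26 and 7.23 FPKM on day 3, and its log2 increase in Mct1f/fMb1Cre cells was 26.2% of that in the control. Gbp2b, a guanylate-binding protein, kept 91.9% of one of the largest rises among members (4.31), and Ifi211 differed by -0.60. Of these 5, Ifi211 and Gbp2b belong to families of similar genes, among which reads may have been divided.

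The 3 protease inhibitors differed by -0.63 (Serpinb9, an inhibitor of granzyme B), -0.61 (Serpinb6b) and -0.58 (Cst7, a cystatin) on day 3, and Serpinb6b was the most abundant, with 114 and 117 FPKM against 82.1, 74.2 and 69.6 FPKM. Another 10 members act in the cytoskeleton, vesicle traffic or cilia. Sytl3, a synaptotagmin-like protein of vesicle release, had 22.9 and 21.7 FPKM against 9.41, 12.1 and 11.2 FPKM on day 3. Inf2, a formin that builds actin filaments, had 58.1 and 59.05 FPKM against 38.5, 40.02 and 41.5 FPKM, and Mreg, which acts in vesicle transport, 38.5 and 38.2 FPKM against 22.98, 24.6 and 24.9 FPKM. Day 3 differences of the others, Saxo2, Focad, Septin3, Dennd11, Cep57l1, Dnaaf2 and Lmo7, ranged from -0.67 to -0.51.

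No role is given for 7 members, 6 of them numbered gene models. Gm42048, annotated as protein coding on chromosome 8, had the second largest day 3 difference of all members (-1.65). It was present on day 0 (15.2 and 15.1 FPKM against 16.4 and 16.8 FPKM) and had 112 and 117 FPKM in Mb1Cre and 35.9, 36.6 and 34.98 FPKM in Mct1f/fMb1Cre cells on day 3, with the 3 Mct1f/fMb1Cre libraries within 2 FPKM of each other. The model 1110032F04Rik had the second largest rise in control cells (4.58) and reached 30.8 and 32.8 FPKM against 17.3, 16.6 and 18.3 FPKM. Gm42049 was the 1 member whose groups overlapped on day 3, at 41.3 and 26.9 FPKM against 28.2, 22.96 and 19.4 FPKM, with the Mb1Cre libraries far from each other.

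**Figure D4:**
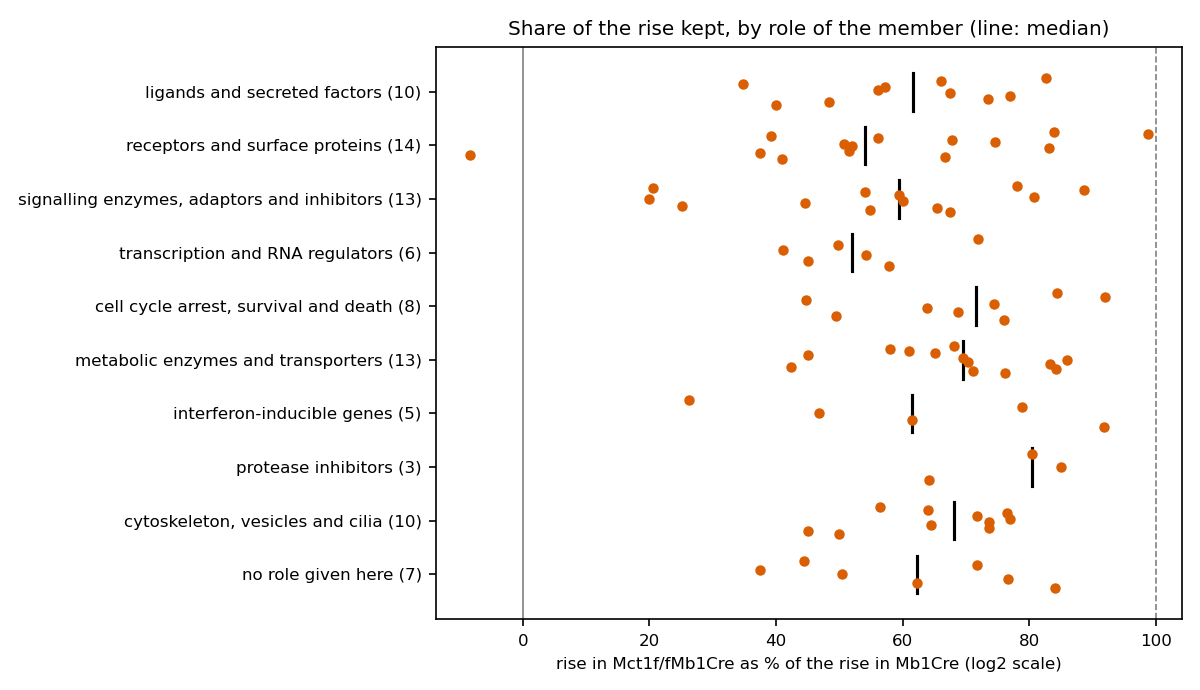
Rise in Mct1f/fMb1Cre as a percentage of the rise in Mb1Cre, both on the log2(FPKM + 1) scale, with 1 point per member, rows for the roles (number of members in brackets), a black line at the median of each role and a dashed line at 100%. Medians range from 52.0% for regulators of transcription and RNA to 80.4% for protease inhibitors, and the points of the larger roles overlap widely. The median rise in Mb1Cre was 1.44 and 3.06 in these roles, and a smaller rise gives a lower share for the same decrease.

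The members made up unequal shares of the induced genes of 15 lists. Of all 1324 genes that rose by more than 1 in Mb1Cre cells, 6.72% were members, and the median day 3 difference of the 1324 was -0.09. Members were 5 of 6 induced cytokines and chemokines (all but Vegfa, at -0.28), 4 of 7 induced cytokine and growth factor receptors, 4 of 6 induced G protein-coupled receptors, 3 of 5 induced costimulation and adhesion genes, 2 of 4 induced TNF ligands and receptors and both induced genes of MAP kinase feedback. Among 10 induced NF-kB genes 3 were members, among 14 induced p53 and growth arrest genes 5, among 6 induced BCL2 family genes 2, among 11 induced transcription factors 3 and among 14 induced IL-4 and STAT6 targets 4. Other induced IL-4 targets had day 3 differences nearer 0 or above it, such as Cish (-0.08), Il4ra (0.12) and Socs1 (0.45). Of 30 induced DNA replication genes Tyms was the 1 member, with a median of -0.03 over the 30. None of 14 induced glycolysis and lactate genes and none of 8 induced class switch recombination genes was a member, with medians of -0.14 and -0.03. Slc16a1 and Eno2 met the limits of the rule but were left out by name, and neither is in these counts. Tent5c was the 1 member of 9 induced plasma cell genes. These lists were written with earlier results of the data known, and no test of a list was made.

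Calls over whole lists on day 3, whether induced or not, stand against 1.53% of all tested genes called lower. Members of a list enter its lower calls, which their choice makes likely, so these counts are a description with no test. Lower calls numbered 8 of 22 tested cytokines and chemokines, 8 of 32 G protein-coupled receptors, 8 of 44 transcription factors, 7 of 35 cytokine and growth factor receptors, 7 of 33 costimulation and adhesion genes, 6 of 32 p53 and arrest genes, 5 of 20 IL-4 targets, 3 of 17 MAP kinase feedback genes, 3 of 32 NF-kB genes, 2 of 20 TNF family genes and 2 of 15 BCL2 family genes. In the other direction, where 0.887% of all tested genes were called higher, there were 2 calls among cytokine and growth factor receptors, 2 among costimulation and adhesion genes and 1 each among G protein-coupled receptors, MAP kinase feedback genes and transcription factors. No counted gene of the glycolysis and class switch recombination lists was called in either direction. These counts do not include Eno2 and Slc16a1, and Slc16a1 differed by -1.11 on day 3. Lower calls were made for 1 of 37 DNA replication genes and 1 of 16 plasma cell genes, both of them members.

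**Figure D5:**
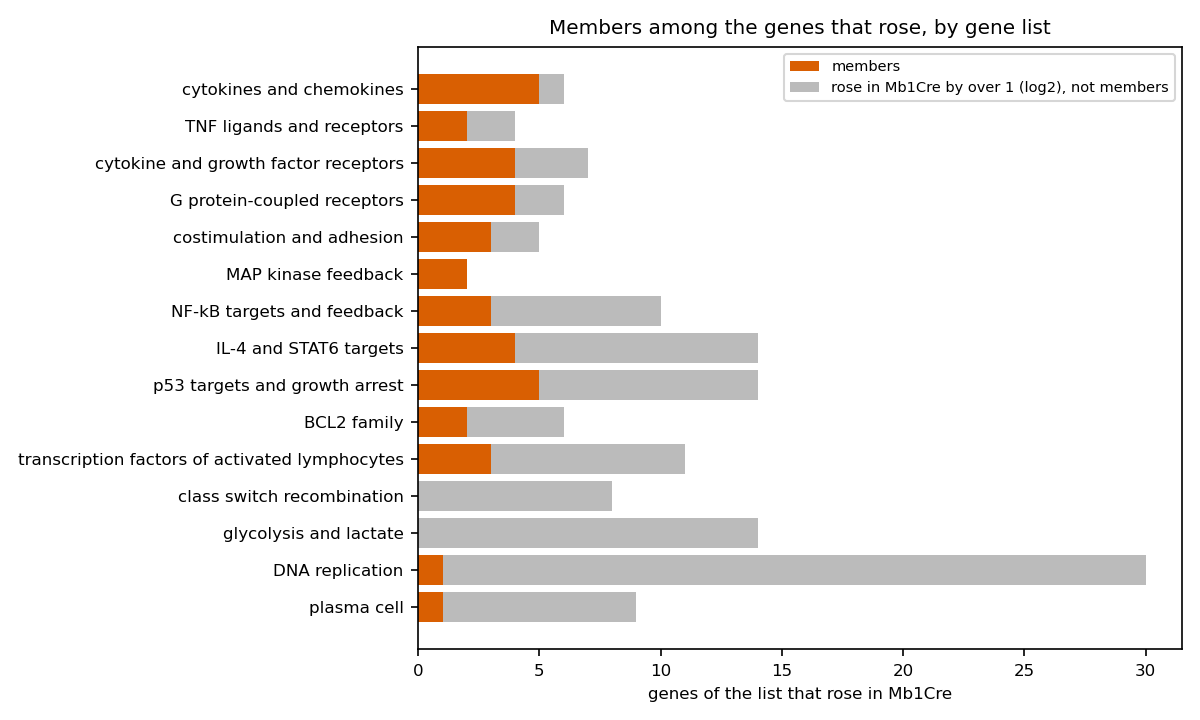
Number of genes of each list that rose by more than 1 (log2) in Mb1Cre cells, with members in orange and non-members in grey. Members fill 5 of 6 in the cytokine bar, 1 of 30 in the DNA replication bar and none of the glycolysis and class switch recombination bars. Slc16a1 and Eno2, left out by name, are not counted in the glycolysis bar.

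The genotype difference on day 0 was the only contrast between genotypes that the choice of members did not fix, although the Mb1Cre libraries of day 0 entered it. Across the 89 members it had a median of 0.02 on the log2 scale and a range from -0.46 to 0.42, with 48 members above 0. No member was called by limma (adjusted p under 0.05 and a difference above 0.5 in size), where 0.277% of all tested genes were called. An unadjusted p under 0.05 was reached by 21 members (23.6%), against 11.7% of all tested genes. The smallest adjusted p of a member was that of Thy1, with 8.86 and 10.9 FPKM in Mb1Cre and 7.06 and 6.64 FPKM in Mct1f/fMb1Cre cells, a difference of -0.46 ± 0.10 (SE) and adjusted p = 0.0913. Without replicate 2 of Mb1Cre day 0, 4 members were called, Rsad2 (0.68) and Ifi211 (0.61) higher and Dusp4 (-0.52) and Phlda3 (-0.73) lower, where 0.945% of all tested genes were called. Without replicate 1 Thy1 was called (-0.60), where 0.251% of all tested genes were called. Replicate 1, the only Mb1Cre day 0 library left without replicate 2, was the one with high Col1a1. In it Dusp4 (6.26 against 3.86 FPKM in replicate 2) and Phlda3 (1.40 against 0.42 FPKM) were higher. Rsad2 (2.83 against 4.64 FPKM) and Ifi211 (6.84 against 10.15 FPKM) were lower in it, and the cause was not tested. The pair of Mb1Cre day 0 libraries differed by more than 0.5 on the log2 scale in 7 members, and the pair of Mct1f/fMb1Cre day 0 libraries, of which only replicate 1 had Y-linked transcripts, in none.

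The limits of the choice cut through a continuum of values. Just inside the day 3 limit were Gm42049 (-0.50), Thy1 (-0.50) and Slc19a2 (-0.50), and just outside were Fam216a (-0.49), Bcl2a1b (-0.49) and Ido2 (-0.49). The rise of Dennd11 (1.03), Stat4 (1.04) and Eng (1.07) was just enough, and that of the costimulatory ligands Cd86 (1.00) and Cd80 (0.99) and of Dmwd (0.97) was not. Means of LOC115485924 (1.02 FPKM), Bdkrb1 (1.17 FPKM) and Jag2 (1.24 FPKM) were just above the minimum, and Inka2 (0.997 FPKM), Arhgap8 (0.937 FPKM) and Abca5 (0.899 FPKM) fell just below it. With a pseudocount of 5 in place of 1, which gives low values less weight, 40 of the 89 still met the rule.

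Some members lie side by side in the genome, by the RefSeq gene table of GRCm38.p6. Serpinb6b and Serpinb9 on chromosome 13 are 17993 bases apart, Il6 and Tyms on chromosome 5 are 18570 bases apart, Dact3 and Ptgir on chromosome 7 are 19188 bases apart and Gstt1 and Gstt2 on chromosome 10 are 33257 bases apart. Gm2808 and Sytl3 on chromosome 17 and Inf2 and Jag2 on chromosome 12 are the other pairs within 500000 bases. Of the 88 members in that table, 38 overlap another annotated gene, for example Cox6a2 with Itgad, Rap1gap with Rap1gapos and Bcl2l11 with Acoxl. Whether the libraries kept strand is not given in the sources used here, so reads of overlapping genes cannot be told apart.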

How the data were processed

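RNA-seq of 9 libraries in 4 groups was used. The authors deposited FPKM, 1 value per gene and library, normalised to transcript length and mapped fragments. The submitters' processing notes name Bowtie2 and GRCm38 (mm10), the quantifier, annotation and strandedness are not given in the sources used here, and the sequencing institute assembled the data.

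Values were transformed as log2(FPKM + 1), which understates the change of low genes. The 10823 genes averaging 1 FPKM or more entered a limma fit (version 3.58.1, R 4.3.3) that used 1 mean per group, a trended empirical Bayes moderation and Benjamini-Hochberg adjustment over these genes. A call needed an adjusted p under 0.05 and a log2 difference above 0.5 in size. The procedure was tested on simulated data. Depth is unknown, and precision rests on 2 or 3 libraries per group.

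The members and the gene lists were chosen with earlier results of these data known. Genes were named by rule: the 20 lowest day 3 differences, the 5 largest rises, up to 4 members per list, Slc16a1 and the 3 genes on each side of each limit. Other members, and list genes that were not members, were named after their values were seen. Some genes of the lists and of the rule for names are not reported here and were left out of the list counts and sums. Roles were assigned by hand. Promoters and gene positions come from RefSeq tables of GRCm38.p6, in which the ends of 74 of 90 member windows were found in a transcript of the gene on the same strand and 0 on the other. Figures used matplotlib 3.10.9 in Python 3.11.15. Alternatives were other pseudocounts, filters, scalings, fits, fold limits, a replicate block and each library left out.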

Additional observations from a re-analysis of the deposited data

How the results depend on the processing

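With a pseudocount of 5 the rule gave 40 members, all of them among the 89, and 47 of the 89 were called lower on day 3. With a mean of at least 5 FPKM, which tests fewer genes, it gave 57 members, 56 of them called on day 3, and 57 were called higher with activation in Mb1Cre and 54 in Mct1f/fMb1Cre cells. A log2 limit of 1 left 15 members called lower on day 3. Leaving out each library in turn gave 85 to 98 members by the rule, and of the 89 it gave 0 to 4 called on day 0, 71 to 88 lower on day 3, 86 to 89 higher with activation in Mb1Cre and 80 to 83 in Mct1f/fMb1Cre cells. On day 0 the calls came without 1 of the Mb1Cre libraries: 1 member (Thy1) without replicate 1 and 4 (Rsad2, Ifi211, Dusp4 and Phlda3) without replicate 2, where 0.251% and 0.945% of all tested genes were called. The cause was not tested. A pseudocount of 0.1 gave 124 members, no filter 103, a common total 78, quantile normalization 85 and size factors from medians of ratios 90. Of the 89, 68 met the rule without any 1 library, and 40 under both pseudocounts and the 3 scalings. The day 3 difference and the rise of the named members kept their sign in every alternative that recomputed them, as the choice of members makes likely, and day 0 differences near 0 did not always. Of the recomputed day 3 differences, 57 moved by at least the gene's standard deviation within groups and 704 did not. Of the recomputed rises, 230 moved that far and 531 did not. The median of all tested genes for activation in Mb1Cre was -0.12, against -0.31 after scaling to a common total.

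With the replicate number as a replicate block, 0 members were called on day 0, 81 lower on day 3, 89 higher in Mb1Cre and 81 higher in Mct1f/fMb1Cre cells. Same-numbered libraries deviated from their group means with r from -0.12 to 0.06, so the number does not pair them. Crossing the numbers of the Mb1Cre day 0 libraries, an alternative chosen after seeing the data, gave 0, 83, 89 and 81 calls.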
